A study of Mus musculus with 6 samples.

Results

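The genes described here encode proteases, substrates and inhibitors of the complement system, and they were taken by symbol from the deposited count table. They are C1s, C1ra, C1rl, Serping1, C3, C4b, Cd55 and Cd59a, 8 of 22740 protein-coding genes, and all 8 were found. They were picked with the difference between CX-5461 and DMSO in these same libraries already known, so their levels and changes are given as a description and carry no test. RNA was sequenced from B16 cells, a mouse melanoma line, kept for 3 days with 1 uM CX-5461 (3 libraries) or with the vehicle DMSO (3 libraries). CX-5461 inhibits RNA polymerase I, the enzyme that transcribes ribosomal RNA genes. The labels give both groups as BRAFV600E-negative, the series design names the subline B16-F10, and every library was of total RNA from cells grown in serum-containing DMEM. Nothing in the labels says that replicates came from separate cultures, so p-values measure the spread between these libraries, which may be technical.

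Complement is a cascade of proteases in blood and tissue fluid. In the classical pathway C1q binds its target, the protease C1r activates the protease C1s, and C1s cleaves C4 and C2 to build the enzyme that cleaves C3. The C1 inhibitor, encoded by Serping1, blocks C1r and C1s. Host cells carry membrane inhibitors, of which CD55 speeds the decay of the C3-cleaving enzymes and CD59 stops the assembly of the membrane attack complex. The liver makes most plasma complement, but many other cells transcribe some of its genes.

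Of the 8 genes, 5 had enough counts for the genome-wide fit, and 3 (C3, Cd55 and Serping1) were silent or nearly so. C1s, the protease that cleaves C4 and C2, stood 27.3-fold higher with CX-5461, and C4b, a mouse gene of complement component C4, 9.92-fold higher. The partner protease C1ra and its relative C1rl were 1.41-fold and 1.69-fold higher, and the membrane inhibitor Cd59a 1.15-fold higher. Serping1 had no count in any library and Cd55 had 1 count in all. Transcripts of C1s and C4b, a protease and its substrate, were thus present while those of the soluble inhibitor were not detected.

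Several of these genes have near-identical copies, and the sequences below show how far reads can be told apart. How reads that match several genes were counted is unstated in the sources used here. Against GENCODE M21 transcripts of build GRCm38, 30.0% of the 50-base windows of the C1s coding sequence also occur in C1s2, and 11.3% of its 100-base windows. For C1ra and its copy C1rb these shares were 59.7% and 43.6%, and for C4b and C4a 35.5% and 16.4%. Gm18840 shares windows with C1ra too, and with both genes the C1ra shares were 63.6% and 45.7%. Cd55 shared 29.5% and 15.6% with Cd55b. Coding windows of Cd59a, C1rl, Serping1 and C3 of either length matched no transcript of another gene. Stretches of 90 coding bases are shown in pairs, with capitals at bases that differ between the copies. For C1s the stretch at the middle of the coding sequence (coding bases 997 to 1086) is identical in C1s2, and the stretch with most differences (1454 to 1543) has 20.
C1s and C1s2, middle: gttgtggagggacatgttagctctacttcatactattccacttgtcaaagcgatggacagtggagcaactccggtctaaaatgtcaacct
C1s, most differences: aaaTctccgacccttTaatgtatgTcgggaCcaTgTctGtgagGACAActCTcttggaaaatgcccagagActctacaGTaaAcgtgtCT
C1s2, most differences: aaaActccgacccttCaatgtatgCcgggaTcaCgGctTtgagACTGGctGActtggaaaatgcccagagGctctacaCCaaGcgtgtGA
The middle stretch of C1ra (coding bases 1016 to 1105) differs from C1rb at 3 bases, that of C4b (2563 to 2652) from C4a at 11, and that of Cd59a (140 to 229) from Cd59b at 18.
C1ra: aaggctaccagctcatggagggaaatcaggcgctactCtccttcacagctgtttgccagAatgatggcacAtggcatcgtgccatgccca
C1rb: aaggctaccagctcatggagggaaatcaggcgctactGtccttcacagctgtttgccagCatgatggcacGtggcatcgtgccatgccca
C4b: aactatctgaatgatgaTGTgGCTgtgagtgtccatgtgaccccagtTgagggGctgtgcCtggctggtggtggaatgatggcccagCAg
C4a: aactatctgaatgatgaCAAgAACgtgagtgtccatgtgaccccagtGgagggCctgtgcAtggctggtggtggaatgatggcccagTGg
Cd59a: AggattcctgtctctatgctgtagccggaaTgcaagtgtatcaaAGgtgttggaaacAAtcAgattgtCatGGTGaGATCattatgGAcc
Cd59b: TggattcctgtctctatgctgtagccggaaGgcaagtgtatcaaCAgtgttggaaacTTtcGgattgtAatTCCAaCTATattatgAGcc

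Over the coding bases that could be aligned, C1s was 95.7% identical to C1s2, C1ra 98.0% to C1rb, C4b 96.1% to the C4a transcript, Cd55 93.9% to Cd55b and Cd59a 85.0% to Cd59b. The aligned bases were 92.6% of the Cd55 coding sequence, 95.9% of that of Cd59a and nearly all or all of the others. The copies held almost no counts. C1s2, listed under its older symbol Gm5077, had 8 counts over the CX-5461 libraries and 7 over the DMSO libraries, where C1s had 3240 with CX-5461 and 114 with DMSO. C1rb had 4 counts with CX-5461 and 3 with DMSO, Cd59b had 2 with CX-5461 and 1 with DMSO, and Cd55b, listed as Daf2, had none. C4a, annotated as a processed transcript, was not analysed here, so a share of C4a reads within the C4b counts cannot be told apart. C1s also overlaps the antisense transcript Gm16567 in its exons, and Cd55 overlaps the antisense transcript Gm16083. Use of strand in counting is unstated in the sources used here, so reads of gene and antisense partner cannot be told apart there.

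The libraries held 17877481 to 22908309 counts with CX-5461 and 17573990 to 20198979 with DMSO. Levels are given as CPM, counts scaled to a common library size after multiplying each total by its TMM factor, a correction for composition that leaves only changes relative to other genes visible. A single count was worth 0.0450 to 0.0575 CPM. Of 12198 genes tested with edgeR's quasi-likelihood test, 73.7% passed the threshold of 0.05 on the adjusted p, with 37.2% higher and 36.5% lower with CX-5461. So broad a change is the setting for every count given here. Markers of the melanocyte lineage (Mitf, Sox10, Tyr, Tyrp1, Dct, Pmel and Mlana) summed to 28241 to 30542 CPM with CX-5461 and to 22071 to 22922 CPM with DMSO, and all 7 were detected in every library. RNA was measured in bulk, so fewer cells of a kind and less RNA per cell cannot be told apart.

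C1s showed the largest change of the 5 fitted genes. It lies on chromosome 6 (chr6:124530345-124542359, GRCm38, minus strand, named C1s1 in GENCODE). Its level was 51.2, 55.5 and 57.5 CPM in the CX-5461 libraries, against 2.18, 2.22 and 1.56 CPM in the DMSO libraries. Every CX-5461 library was thus far above every DMSO library, and DMSO replicate 3 was the lowest of all. The means were 54.7 ± 3.23 CPM with CX-5461 and 1.99 ± 0.369 CPM with DMSO (SD, n = 3 each), a log2 change of 4.77 ± 0.11 (SE), which ranked 21 among the 12198 genes. The DMSO level rested on 114 counts in all, or 2.00 CPM over the group with an exact 95% Poisson interval of 1.65 to 2.41 CPM that covers counting error only.

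C1ra, which encodes the protease that activates C1s, is the next gene on the chromosome (chr6:124512405-124523443, plus strand). It had 22.5, 27.3 and 26.3 CPM in CX-5461 libraries and 19.6, 16.6 and 17.5 CPM in DMSO libraries. The groups did not overlap, but CX-5461 replicate 1 lay close to DMSO replicate 1. The means were 25.4 ± 2.55 CPM with CX-5461 and 17.9 ± 1.53 CPM with DMSO (SD, n = 3 each), a log2 change of 0.50 ± 0.09 (SE). C1rl, a C1r-like protease gene just beyond it (chr6:124493113-124510643, plus strand), had 24.4, 25.4 and 24.2 CPM with CX-5461 and 15.4, 14.5 and 13.7 CPM with DMSO. Its libraries kept close together within each group, with means of 24.7 ± 0.661 CPM with CX-5461 and 14.6 ± 0.835 CPM with DMSO and a log2 change of 0.76 ± 0.08.

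**Figure D1:**
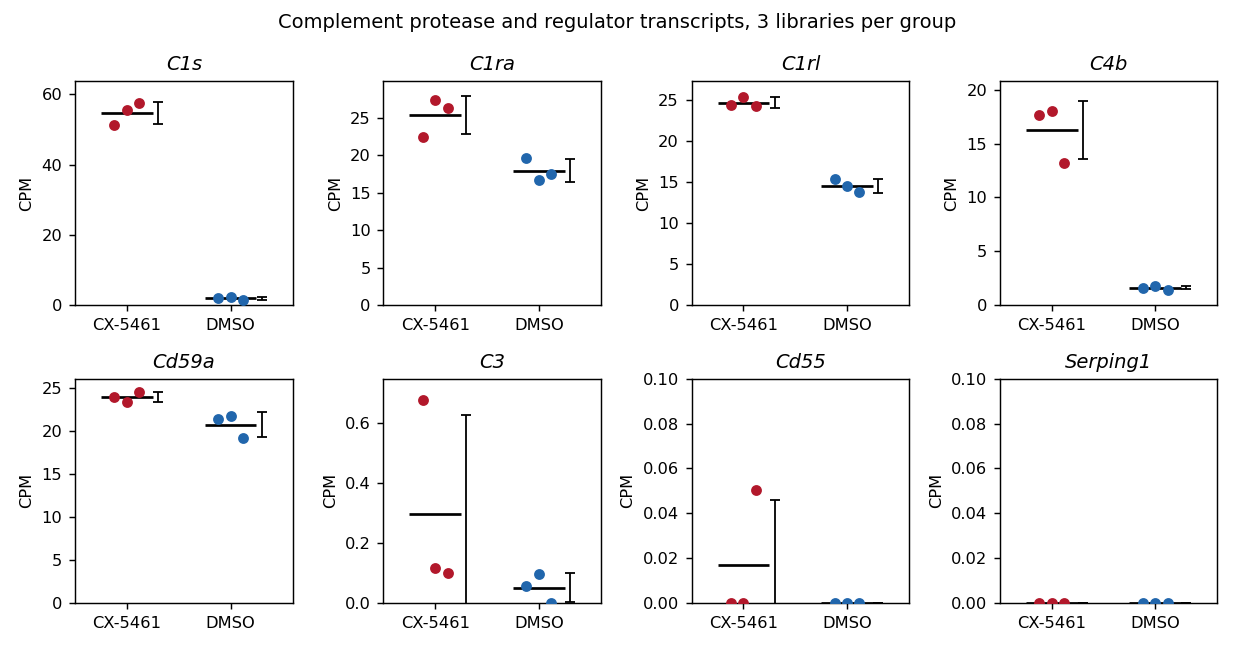
Level of each gene in every library, in CPM on a linear axis from 0, with CX-5461 left of DMSO; dots are libraries, bars the mean of 3 and whiskers the SD. C1s and C4b part widely (54.7 against 1.99 and 16.3 against 1.63 CPM), C1ra, C1rl and Cd59a part narrowly, and C3, Cd55 and Serping1 lie near 0 on their enlarged axes.

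Set against each other within a library, which needs no scaling between libraries, the proteases changed their proportions. C1s counts per C1ra count were 2.28, 2.03 and 2.19 in the CX-5461 libraries and 0.111, 0.133 and 0.0895 in the DMSO libraries. The order of their counts was therefore turned, C1s having more counts in all CX-5461 libraries and C1ra in all DMSO libraries. C1ra shares 63.6% of its 50-base coding windows with C1rb or Gm18840, and C1s shares 30.0% with C1s2. How such reads were counted is unstated, so the ratio of transcript levels may differ from that of counts. Per exonic kilobase the ratio averaged 2.06 ± 0.119 with CX-5461 and 0.106 ± 0.0209 with DMSO (SD, n = 3 each). C1ra counts per C1rl count moved little by comparison, at 0.922, 1.07 and 1.09 with CX-5461 and 1.27, 1.15 and 1.27 with DMSO.

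The neighbours of C1s, taken by position after the values were seen, changed by less than 1 on the log2 scale where tested. Clstn3, which encodes a calsyntenin, changed by -0.24 ± 0.05 (log2, SE; adjusted p = 0.000681, edgeR quasi-likelihood test) and Pex5, the peroxisomal import receptor, by -0.60 ± 0.05 (adjusted p = 2.01e-08). On the other side, beyond the near-silent copies C1rb and C1s2, Lpcat3, a lysophospholipid acyltransferase, rose by 0.12 ± 0.04 (adjusted p = 0.0148), and Emg1, a ribosome assembly methyltransferase, changed by -0.47 ± 0.06 (adjusted p = 5.22e-06).

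**Figure D2:**
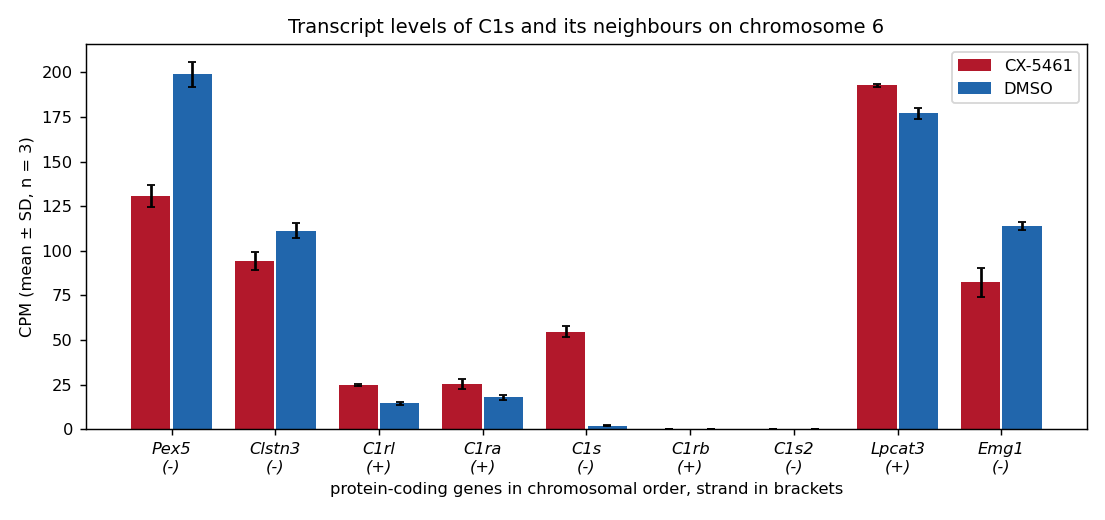
Mean CPM of C1s and the 4 protein-coding genes of the table on each side, in chromosomal order with strand in brackets; red bars are CX-5461, blue bars DMSO, whiskers the SD of 3 libraries. C1s has a red bar far above its blue one (54.7 against 1.99 CPM), and its copies C1rb and C1s2 lie at the axis.

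The promoter windows of the 3 clustered protease genes are shown because these neighbours differed so much in change. Sequences are from RefSeq on GRCm38.p6, each from 250 bases before to 50 after the annotated start, and 6 of the 8 genes matched an entry. Capitals mark what was found on either strand of the following patterns. Those searched were the STAT site TTCNNNGAA, the E-box CACGTG of the kind the pigment cell factor MITF binds, the related M-box core CATGTG, the AP-1 site TGANTCA, the GC box GGGCGG and the TATA box TATAAA. An interferon-stimulated response element core of GAAA repeated after 2 bases of any kind, an NF-kB pattern beginning GGGA and ending CC with 4 bases of any kind between, and a G-quadruplex pattern of 4 runs of 3 or more G with gaps of 1 to 7 bases were searched too.
C1s, chr6:124542310-124542609, minus strand: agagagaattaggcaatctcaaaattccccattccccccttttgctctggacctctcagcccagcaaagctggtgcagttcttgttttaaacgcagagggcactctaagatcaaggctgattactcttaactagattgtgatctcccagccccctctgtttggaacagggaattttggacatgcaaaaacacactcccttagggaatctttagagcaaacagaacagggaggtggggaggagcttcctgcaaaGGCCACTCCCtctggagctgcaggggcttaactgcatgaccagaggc
C1ra, chr6:124512371-124512670, plus strand: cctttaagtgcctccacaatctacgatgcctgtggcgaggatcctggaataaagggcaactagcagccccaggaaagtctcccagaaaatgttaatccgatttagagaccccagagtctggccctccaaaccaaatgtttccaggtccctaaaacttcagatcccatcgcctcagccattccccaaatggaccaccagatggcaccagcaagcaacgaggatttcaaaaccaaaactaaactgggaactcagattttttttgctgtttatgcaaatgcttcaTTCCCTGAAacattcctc
C1rl, chr6:124492863-124493162, plus strand: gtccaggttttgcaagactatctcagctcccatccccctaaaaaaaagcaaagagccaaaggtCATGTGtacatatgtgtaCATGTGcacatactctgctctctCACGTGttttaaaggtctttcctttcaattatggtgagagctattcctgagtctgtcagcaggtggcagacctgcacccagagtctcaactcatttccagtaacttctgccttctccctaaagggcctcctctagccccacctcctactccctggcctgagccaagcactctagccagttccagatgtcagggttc
Of these patterns the C1s window held the NF-kB one, as did 20.7% of 32851 promoter windows. RefSeq gives C1s 2 overlapping windows, and both hold that same match. The NF-kB pattern also occurred in the windows of C1s2, C3, Cd55, Cd55b and Cd59b, all of them silent or nearly so. C1ra held a STAT match (8.30% of windows), as did the window of its copy C1rb, and C1rl held CACGTG (7.15%) and CATGTG at 2 places (14.2%). No matches overlapped in these 3 windows, and they are matches of letters, not sites shown to be bound.

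C4b encodes the component that C1s cleaves, and it lies among the MHC class III genes (chr17:34728380-34743882, GRCm38, minus strand). It had 17.6, 17.999 and 13.2 CPM in the CX-5461 libraries and 1.64, 1.79 and 1.45 CPM in the DMSO libraries. CX-5461 replicate 3 was the lowest of its group yet far above all DMSO libraries. The means were 16.3 ± 2.67 CPM with CX-5461 and 1.63 ± 0.167 CPM with DMSO (SD, n = 3 each), a log2 change of 3.31 ± 0.17 (SE), rank 114. C1s and C4b were the 2 of the 5 fitted genes with a log2 change of at least 3, as had 1.29% of all tested genes. Near C4b, the kinase-named gene Stk19 changed by -0.39 ± 0.06 (adjusted p = 2.54e-05, edgeR) and Fkbpl, an immunophilin-like gene, rose by 0.39 ± 0.09 (adjusted p = 0.00156). Atf6b, an endoplasmic reticulum stress sensor, was at 102.0 ± 1.62 CPM with CX-5461 and 100.4 ± 3.599 CPM with DMSO (adjusted p = 0.684), and Cyp21a1, a steroid hydroxylase gene, had no count.

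C3, the central component that the pathways converge on, was close to the detection limit. Its counts were 15, 2 and 2 in the CX-5461 libraries and 1, 2 and 0 in the DMSO libraries, too few for the fit. A single library, CX-5461 replicate 1, thus held 15 of the 19 counts of its group. That same library held 148 counts of Alb, the albumin gene of hepatocytes, which had 0 in the other 5. The 5 hepatocyte markers (Alb, Apoa1, Ttr, Fgb and Serpina1a) summed to 7.97 CPM in CX-5461 replicate 1, to 0.230 and 0.253 CPM in the other CX-5461 libraries and to 0 to 0.218 CPM in the DMSO libraries. The part of hepatocyte RNA in the C3 counts was not tested. Without that library C3 had 4 counts, or 0.108 CPM over the group with an exact 95% Poisson interval of 0.0293 to 0.275 CPM, against 3 counts and 0.0527 CPM (0.0109 to 0.154) with DMSO. The intervals overlap, so no difference in C3 was detectable at this depth outside CX-5461 replicate 1. In CX-5461 replicates 1, 2 and 3, C1s was at 51.2, 55.5 and 57.5 CPM and C4b at 17.6, 17.999 and 13.2 CPM. A part of hepatocyte RNA in these levels was not tested either.

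**Figure D3:**
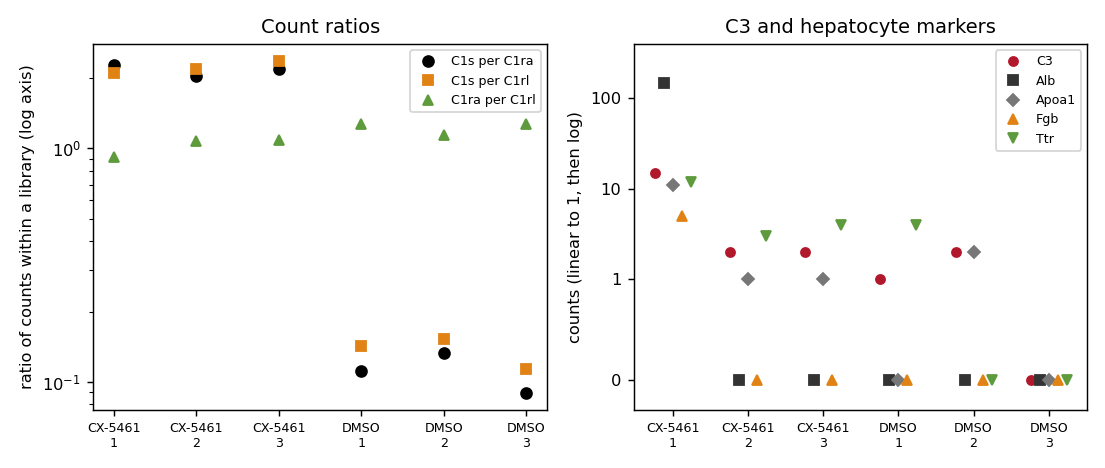
Left, ratios of counts within each library on a log axis; C1s per C1ra and C1s per C1rl lie above 2 in the 3 CX-5461 libraries and below 0.2 in the 3 DMSO libraries. Right, counts of C3 and of 4 hepatocyte markers per library on an axis that is linear to 1 and logarithmic above; C3 (15 counts) and Alb (148) both peak in CX-5461 replicate 1.

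Of the inhibitor genes Serping1, Cd55 and Cd59a, the last alone had more than 1 count in all. It lies on chromosome 2 (chr2:104095801-104115354, plus strand) and had 23.9, 23.3 and 24.5 CPM with CX-5461 and 21.4, 21.7 and 19.1 CPM with DMSO. The groups parted by little, and the lowest value was again DMSO replicate 3. The means were 23.9 ± 0.582 CPM with CX-5461 and 20.7 ± 1.40 CPM with DMSO (SD, n = 3 each), a log2 change of 0.21 ± 0.08 (SE). The log2 change of Cd59a was 0.18 without CX-5461 replicate 3, 0.15 without DMSO replicate 3 and 0.13 with library totals only. Cd59a did not pass the threshold in those fits. Cd55 (chr1:130439027-130462744, minus strand) had 1 count, in CX-5461 replicate 3, and Serping1 (chr2:84765387-84775444, minus strand) none. A count of 0 allows up to 0.0505 CPM of Serping1 over the CX-5461 group and 0.0527 CPM over the DMSO group, taking 3 counts as the limit.

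All 5 fitted genes were past the threshold and higher with CX-5461, beside 37.2% (73.7% in either direction) of all tested genes, and the groups did not overlap for all 5, beside 38.2% of tested genes in that direction and 76.1% in either. The genes were picked from this contrast, so nothing is read from these counts or from their median log2 change. That median was 0.76, and it was -0.005 for all tested genes.

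Levels can be compared between genes only per length. The places of C1s, C1ra and C4b also depend on how reads shared with their copies were counted, which is unstated. Per kilobase of exonic sequence, C1s stood first with CX-5461 at 17.5 ± 1.03 CPM, ahead of Cd59a at 13.2 ± 0.321, C1ra at 8.504 ± 0.857, C1rl at 8.19 ± 0.219 and C4b at 2.86 ± 0.469 (SD, n = 3). C1ra and C1rl overlapped there and had no clear order. With DMSO the order was Cd59a at 11.4 ± 0.776 CPM per kilobase, C1ra at 6.01 ± 0.513, C1rl at 4.84 ± 0.277, C1s at 0.636 ± 0.118 and C4b at 0.285 ± 0.0294, and neighbours in that order did not overlap. C3 was at 0.131 CPM per kilobase in CX-5461 replicate 1 and lower in the other 5 libraries.

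The genes of most similar pattern over the 6 libraries were found by the root mean square difference of centred log2 CPM. The search covered 11500 tested genes, leaving out clone, predicted-gene and pseudogene names. For C1s these were Cpz, a carboxypeptidase gene (0.0977), Dgki, a diacylglycerol kinase gene (0.170), and Serpine2, a secreted serpin gene (0.220). Cpz was at 29.6 ± 1.67 CPM with CX-5461 and 1.18 ± 0.302 CPM with DMSO. The nearest to C4b was Vwf, which encodes von Willebrand factor (0.104), and the nearest to C1ra, C1rl and Cd59a were Cbx8 (0.0266), Rhod (0.0157) and Tbx4 (0.0210). With small changes many genes lie close, so the last 3 distances are small.

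Most further complement genes had too few counts for the test. Of 51 in the table, 20 had no count and 42 were not tested for low counts. Over all 22740 genes of the table, 6667 had no count and 10542 were not tested. Of the 9 tested complement genes 3 rose, 4 fell and 2 were not called, beside 73.7% called among all tested genes. The target-binding subunits C1qa and C1qc had no count and C1qb had 1, and Cfd, C6, C8a, C8b and C9 had none. Masp1, which encodes a protease of the lectin pathway, had 157, 128 and 156 CPM in CX-5461 libraries and 40.4, 41.5 and 45.3 CPM in DMSO libraries, a log2 change of 1.80 ± 0.08 (SE; adjusted p = 1.06e-11, edgeR). C2, which encodes the other substrate of C1s, had 107 ± 11.6 CPM with CX-5461 and 121 ± 6.79 CPM with DMSO and passed as lower by a narrow margin (log2 change -0.17 ± 0.07, adjusted p = 0.0320). That call ended without CX-5461 replicate 3 (adjusted p = 0.155) and without DMSO replicate 3 (adjusted p = 0.153), with 0.0003013 to 0.1547 over all alternatives.

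Regulators other than the 8 went both ways. Clu, which encodes clusterin, a fluid-phase inhibitor of the membrane attack complex, rose to 2.57, 2.76 and 2.12 CPM with CX-5461, against 0.273, 0.145 and 0.223 CPM with DMSO (log2 change 3.51 ± 0.32, adjusted p = 7.48e-08). Its DMSO values rest on 3 to 5 counts per library. The membrane cofactor gene Cd46 was at 1.43 ± 0.248 CPM with CX-5461 and 3.87 ± 0.312 CPM with DMSO, a log2 change of -1.43 ± 0.19 (adjusted p = 5.23e-06). Cr1l, which encodes Crry, the rodent inhibitor of C3 cleavage on cell membranes, had 35.5 ± 1.79 CPM with CX-5461 and 42.4 ± 1.45 CPM with DMSO (log2 change -0.26 ± 0.06, adjusted p = 0.00138). C1qbp, a mitochondrial protein gene named for binding C1q, changed by -0.32 ± 0.06 (adjusted p = 0.000311). Itgb2, the beta chain of the complement receptors of leukocytes, rose by 2.00 ± 0.28 (adjusted p = 1.19e-05) to 2.76 ± 0.0790 CPM, against 0.699 ± 0.411 CPM with DMSO, while its alpha chains Itgam and Itgax had no count. Properdin (Cfp) and C8g did not pass, with adjusted p of 0.618 and 0.122. Cfi, the protease gene of factor I, was too low for the test, at 17, 9 and 9 counts with CX-5461 and 0, 1 and 0 with DMSO, and is named after its values were seen.

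**Figure D4:**
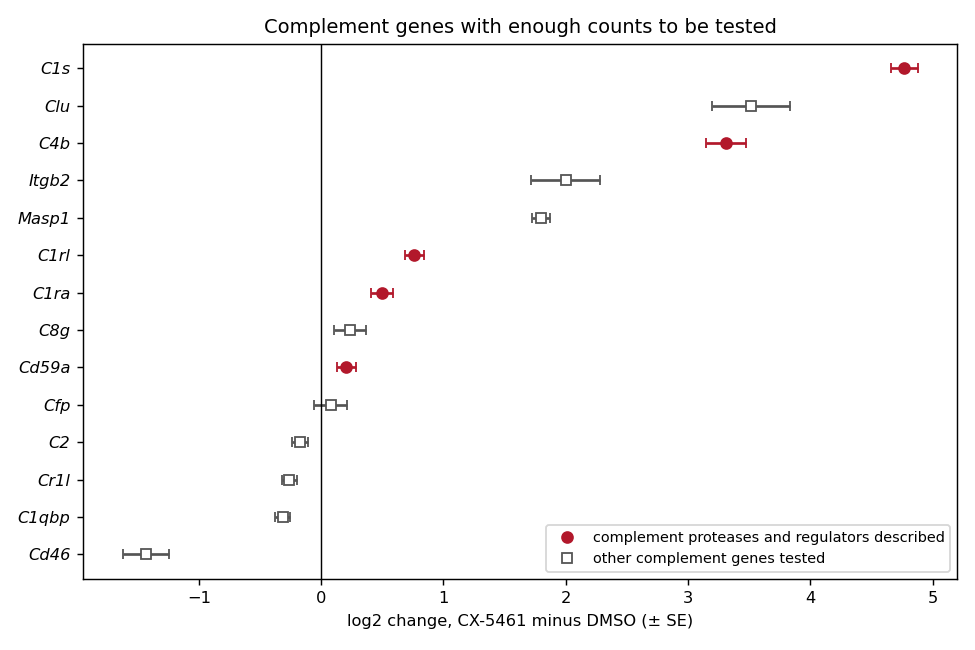
Log2 change, CX-5461 minus DMSO, with its SE for every complement gene that could be tested; filled circles are the 5 fitted genes of the 8, open squares the 9 others. C1s (4.77) and C4b (3.31) stand beside Clu (3.51) at the top, and Cd46 (-1.43) at the bottom.

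CD55 and CD59 are held on the cell surface by a GPI anchor. All 27 genes of anchor synthesis and attachment in the table were tested, of which 8 rose, 9 fell and 10 were not called. Among all tested genes 37.2% were higher and 36.5% lower. The median log2 change of the 27 genes was -0.003. The transamidase subunit genes Pigk and Pigt rose by 0.49 ± 0.06 (adjusted p = 2.18e-06) and 0.38 ± 0.05 (adjusted p = 1.90e-06), and Piga, of the first step, by 0.36 ± 0.10 (adjusted p = 0.00554). Pigk took the opposite sign, at -0.53, once an offset for each gene's genomic span was fitted. The mannosyltransferase cofactor gene Pigx changed by -0.55 ± 0.06 (adjusted p = 1.38e-06), the acyltransferase gene Pigw by -0.52 ± 0.10 (adjusted p = 0.000224) and the anchor remodelling gene Pgap1 by -0.51 ± 0.10 (adjusted p = 0.000227). The range of these changes was narrow beside that of C1s and C4b.

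Of 6 transcription factors known to act on complement genes, 4 rose and 2 fell, beside 37.2% higher and 36.5% lower among all tested genes. Irf1, an interferon regulatory factor, rose by 0.60 ± 0.08 (adjusted p = 5.53e-06), Nfkb1 by 0.41 ± 0.06 (adjusted p = 1.54e-05) and Stat3 by 0.17 ± 0.05 (adjusted p = 0.00414). With the gene-span offset Nfkb1 and Stat3 did not pass (adjusted p = 0.215 and 0.183), so that 2 rose. Cebpb, a factor of the acute phase response, had 18.5, 32.8 and 36.2 CPM with CX-5461 and 90.02, 84.9 and 71.1 CPM with DMSO, a log2 change of -1.50 ± 0.16 (adjusted p = 4.68e-07). Rela changed by -0.20 ± 0.06 (adjusted p = 0.00538).

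Macrophages and fibroblasts also transcribe complement genes, and their markers were measured beside these results. The 8 macrophage markers summed to 17.0 to 18.7 CPM with CX-5461 and 12.2 to 13.4 CPM with DMSO, most of it Cd68. Tyrobp had no count, Ptprc and Adgre1 had 1 count each, and Lyz2 rose by 2.21 ± 0.31 (adjusted p = 9.99e-06), the only one of the 3 tested to pass. Lyz2 was low, at 4.20 ± 0.916 CPM with CX-5461 and 0.871 ± 0.561 CPM with DMSO. Its DMSO values rest on 6, 30 and 15 counts. The 7 fibroblast markers summed to 30.9 to 34.4 CPM with CX-5461 and 12.5 to 16.5 CPM with DMSO. Of the 3 tested, Col1a2 rose by 3.51 ± 0.13 (adjusted p = 3.31e-12), whereas Col1a1 and Pdgfra changed by -1.30 ± 0.18 (adjusted p = 1.08e-05) and -0.37 ± 0.16 (adjusted p = 0.0442). Col3a1 and Thy1 had no count and Dcn had 2 over the CX-5461 libraries and none over the DMSO libraries.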

How the data were processed

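RNA of 3 CX-5461 and 3 DMSO samples of B16 cells was sequenced, and groups and replicate numbers come from the sample titles. The deposited table holds raw counts per protein-coding gene, not normalized by the authors, as its differing column totals show. Genome builds GRCm38 and mm10 appear among the submitters' processing notes. No aligner, counter, annotation or strand setting is stated in the sources used here. The genes described and all gene lists were chosen with earlier results of these data known. Cebpd of the transcription factor list was not analysed here.

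Genes were kept by filterByExpr (minimum count 10) of edgeR 4.0.16 in R 4.3.3, and 12198 of 22740 were tested with the quasi-likelihood F test, TMM factors and treatment as the only term, two-sided, with Benjamini-Hochberg adjustment over all tested genes. An adjusted p below 0.05 was called. SE was derived as the absolute log2 change over the square root of F. The test was also run on simulated counts, with far fewer changed genes than here and the same replicate noise for every gene. That run does not check the test for so broad a change. Named genes were the 8, their copies, the called further complement genes at 1 CPM or more, the 3 largest called GPI anchor changes each way, and the listed transcription factors, of which 1 is not reported here by name. Positions, exonic lengths and transcripts are from GENCODE M21, which matched 21842 identifiers. Alternatives were upper-quartile or RLE factors, unscaled library totals, no filter, 1 CPM in 3 libraries, DESeq2 1.42.0, limma-voom 3.58.1, a replicate block, a gene-span offset, an adjusted p below 0.01 and each library left out. Replicates of a group differed by more than sampling noise, their chi-square divided by its degrees of freedom being 5.42 to 9.01 for CX-5461 pairs and 1.56 to 2.52 for DMSO pairs.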

Additional observations from a re-analysis of the deposited data

How the results depend on the processing

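C1s, C1ra, C1rl, C4b and Cd59a kept their direction under all 15 alternatives that refit their change, and each moved by less than the spread of its replicates. The log2 change of C1s ran from 4.63 to 4.86, of C4b from 3.23 to 3.44, of C1rl from 0.69 to 0.80, of C1ra from 0.43 to 0.58 and of Cd59a from 0.13 to 0.24. Cd59a missed the threshold with library totals only, at an adjusted p of 0.01, and without CX-5461 replicate 3 or DMSO replicate 3. With no filter on low counts C3 passed as well, on the counts of mainly CX-5461 replicate 1. The genes were picked from this contrast, so passing or missing the threshold is no support for any of them. Counts over the further complement genes were 3 or 4 higher and 3 or 4 lower under every alternative. With the gene-span offset 2 transcription factors rose in place of 4, and Pigk turned to -0.53. Same-numbered samples did not deviate together (correlations of 0.0364, 0.0037 and -0.0084). No pairing by number was visible, but one that leaves no shared deviation would not show here. With the replicate block 4536 genes were higher and 4464 lower, against 4538 and 4448 without it. The DMSO level of C1s and C4b and all of C3 rest on few counts, which limits their precision.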
